A study of Mus musculus with 33 samples.

Results

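The data described here are livers taken 1.5 d after 70% partial hepatectomy in mice, set against livers labelled 0 d, in a regeneration series of 33 Affymetrix arrays at 11 times with 3 arrays each. The 6 arrays were chosen by their titles, 3 of the 33 being titled 1.5 d and 3 titled 0 d. Where several probe sets name a gene, the brightest on average across the 33 arrays stood for it, and 13642 of 18193 named genes passed a floor of log2 5 on at least 3 arrays and were tested. Partial hepatectomy is the surgical removal of most of the liver, here 70% of it, and the remnant then grows back. Both groups are mouse liver, differ in the labels only by the time since the operation, and are called biological replicates 1 to 3. The labels do not give strain, sex, age, diet or hour of day, name no sham-operated mice, do not say whether each array is 1 mouse, and do not say how livers 0 days after the operation were taken, so p-values cover the spread between these arrays. DNA synthesis itself was not measured, and in whole tissue fewer cells of a type and less RNA per cell cannot be told apart.

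After partial hepatectomy the differentiated hepatocytes themselves re-enter the cell cycle, rather than a separate stem cell compartment. Before S phase the licensing factors Cdc6 and Cdt1 load the MCM helicase onto origins; E2F transcription factors drive many of these genes, whereas the mitotic genes are controlled later through the cell cycle genes homology region (CHR), a promoter element. The same hepatocytes make plasma proteins, bile acids, urea and detoxifying enzymes.

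The promoters below show the letters that set the replication genes apart from the mitotic genes. They are the 3 replication genes and the 3 mitotic genes with the largest differences at 1.5 d among those holding their motif, 150 bases before the annotated start, from RefSeq with GRCm38.p6 coordinates, written 5′ to 3′ on the gene's strand. Capitals mark an E2F match (TTTGGCGC, TTTCCCGC, TTTCGCGC or TTTGCCGC on either strand) in the first 3 and a CHR match (TTTGAA on either strand) in the last 3. In Mcm6 the first run of capitals is 2 overlapping E2F matches on opposite strands.
Cdc6, chr11:98908001-98908150, plus strand: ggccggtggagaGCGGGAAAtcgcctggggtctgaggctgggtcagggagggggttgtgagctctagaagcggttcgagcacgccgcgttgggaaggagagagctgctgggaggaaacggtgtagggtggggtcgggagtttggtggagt
Mcm5, chr8:75109359-75109508, plus strand: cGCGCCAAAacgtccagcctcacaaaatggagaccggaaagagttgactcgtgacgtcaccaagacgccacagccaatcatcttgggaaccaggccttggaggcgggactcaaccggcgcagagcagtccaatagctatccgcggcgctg
Mcm6, chr1:128359706-128359855, minus strand: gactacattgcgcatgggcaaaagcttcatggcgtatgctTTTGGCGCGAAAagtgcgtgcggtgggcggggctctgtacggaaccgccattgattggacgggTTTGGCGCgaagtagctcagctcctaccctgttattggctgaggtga
Ncapg2, chr12:116405286-116405435, plus strand: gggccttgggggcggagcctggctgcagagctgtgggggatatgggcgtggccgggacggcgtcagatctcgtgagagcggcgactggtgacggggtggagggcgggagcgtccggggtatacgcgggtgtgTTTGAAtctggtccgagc
Ect2, chr3:27153879-27154028, minus strand: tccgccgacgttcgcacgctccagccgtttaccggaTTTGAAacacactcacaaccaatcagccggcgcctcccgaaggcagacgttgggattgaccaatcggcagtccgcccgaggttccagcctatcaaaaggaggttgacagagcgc
Top2a, chr11:99024190-99024339, minus strand: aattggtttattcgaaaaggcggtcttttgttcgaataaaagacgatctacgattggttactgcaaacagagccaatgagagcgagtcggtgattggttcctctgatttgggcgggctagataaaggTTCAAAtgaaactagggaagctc
In Cdc6, Mcm5 and Top2a the match lies on the opposite strand, so the capitals there are its reverse complement.

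Over windows of 300 bases (250 before the start and 50 after it), an E2F match was present in 2.26% of the 32851 promoters of the table, in 4.33% of the 10959 tested genes with a promoter and in 43.4% (23 of 53) of the origin licensing and replication fork genes. It was present in 8.43% (7 of 83) of the mitotic and kinetochore genes and in 1.82% (7 of 384) of the hepatocyte function genes. The CHR letters showed the other distribution: 17.9% of all promoters, 14.8% of tested genes, 59.0% (49 of 83) of mitotic and kinetochore genes, 18.9% (10 of 53) of licensing and fork genes and 18.8% (72 of 384) of hepatocyte function genes. Among all genes tested, E2F letters were present in 8.86% of those higher and in 4.05% of those lower at 1.5 d. These are matches of letters in a window, without a measurement of binding.

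At 1.5 d the liver carried more mRNA for DNA replication and for mitosis, and less for part of the bile acid, amino acid, lipogenic and detoxifying genes, while Alb, Cps1, Cyp2e1, Cyp3a11 and Cyp1a2 did not pass the test. Values are log2 expression after robust multi-array averaging (RMA), and a difference of 1 is 2-fold. In all, 2729 of 13642 genes (20.0%) passed an adjusted p of 0.05 in limma with Benjamini-Hochberg adjustment. Of these 1137 (8.33%) were higher and 1592 (11.7%) lower at 1.5 d. The higher genes reached larger differences: 178 rose and 158 fell by at least 2-fold, and 31 rose and 13 fell by at least 4-fold. The median difference over all genes was -0.008. Without 1.5 d replicate 3 the number of higher genes was 707, and leaving out any of the other 5 arrays kept both counts within 1.5 times.

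Array medians lay between 5.32 and 5.36 on the 6 arrays. The 0 d livers correlated with their own group at 0.986 to 0.988 and the 1.5 d livers at 0.993 to 0.994. The difference between the 3′ and 5′ Gapdh control probe sets, a sign of RNA integrity, was -0.04 to -0.17 at 0 d and -0.22 to -0.33 at 1.5 d; its part in the results was not tested. The 0 d replicate 3 array stood apart from the other 0 d arrays in clock genes, in mitotic genes and in several markers, and without it 1007 genes were higher and 1465 lower at 1.5 d. The 1.5 d arrays lie in a later run of sample numbers than the 0 d, 1 d and 2 d arrays, and hybridization runs are not given in the sources used here, so a run and the time since surgery cannot be told apart in the comparisons with 0 d, 1 d and 2 d.

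The tissue was liver by its markers. Alb, which encodes albumin, read 14.69, 14.71 and 14.68 on the 0 d arrays and 14.75, 14.74 and 14.74 on the 1.5 d arrays. The list of 9 hepatocyte markers had a mean of 13.07 to 13.12 at 0 d and 13.09 to 13.12 at 1.5 d. A description field of the arrays names fat as the source. Adipoq, the adipocyte hormone adiponectin, read 2.83, 2.97 and 5.38 at 0 d and 3.02, 3.19 and 2.89 at 1.5 d. Adipoq was thus near the array's low end on 5 of the 6 arrays, the exception being 0 d replicate 3. The mean of the 8 tested adipocyte markers was 7.06 to 7.68 at 0 d and 6.97 to 7.18 at 1.5 d. Of these 8, 0 passed limma's test (1 at an unadjusted p under 0.05), beside 8.33% higher and 11.7% lower of all genes. That test compares the 2 times and does not bear on how much fat either group held.

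Cell cycle genes that passed the test were mostly higher at 1.5 d. Of 276 tested, 121 (43.8%) were higher and 6 lower at 1.5 d, against 8.33% and 11.7% of all genes, and their median difference was 0.45 against -0.008. Of the 121, 60 rose by at least 2-fold. The plot of differences by gene list shows that the replication fork, kinetochore and licensing lists had the highest medians among the cycle lists, at 0.79, 0.77 and 0.67.

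**Figure D1:**
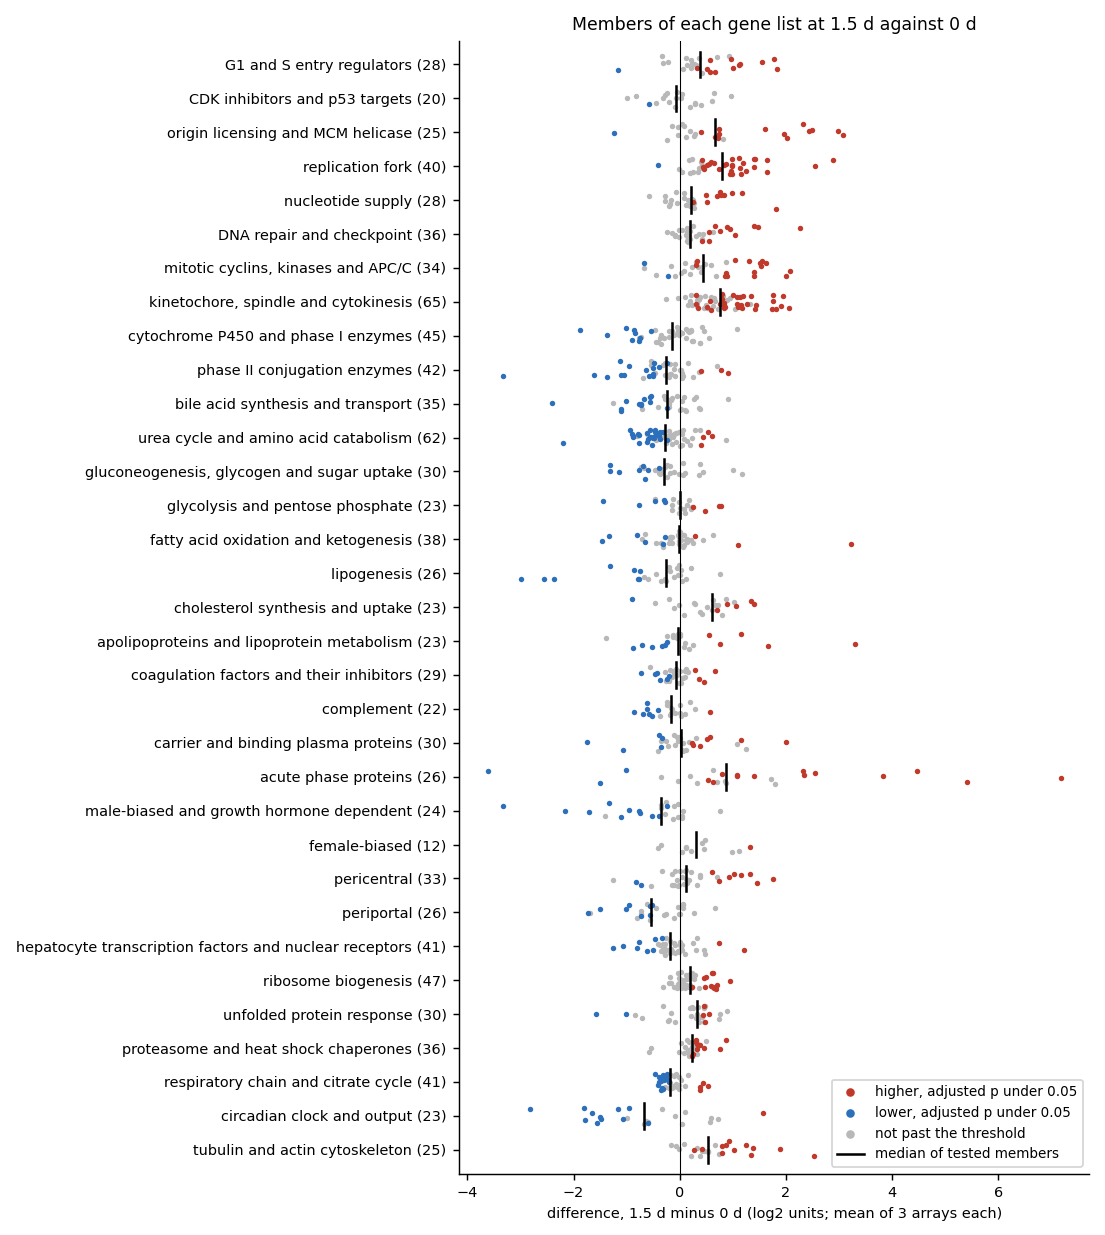
Difference in log2 expression of each tested gene at 1.5 d against 0 d (horizontal axis) in 33 gene lists (rows). Red points were higher and blue points lower past the threshold, grey points did not pass, and the black tick is the list's median, which was 0.79 for the replication fork and -0.54 for the periportal genes.

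Origin licensing was led by the genes that load the helicase and by the helicase itself. Cdc6, the ATPase that loads the MCM helicase, read 2.72, 3.65 and 3.15 at 0 d and 5.49, 6.69 and 6.59 at 1.5 d, a difference of 3.08 ± 0.39 (SE of the fit, n = 3 per group; limma adjusted p = 9.21e-06). The groups did not overlap, although 1.5 d replicate 1 lay below the other 1.5 d livers. All 0 d values of Cdc6 were under the floor of log2 5, so no fold is given. Its 3 values at 1.5 d met the filter by themselves, so its passing the filter is no separate support for the rise. Mcm5, a subunit of that helicase, read 5.55, 5.72 and 6.42 at 0 d and 8.42, 9.28 and 8.91 at 1.5 d (2.98 ± 0.39; limma adjusted p = 1.15e-05). Here too 1.5 d replicate 1 was the lowest of its group, and 0 d replicate 3 the highest of its own. Mcm6 rose by 2.49 ± 0.36, Mcm4 by 2.43 ± 0.32, Mcm3 by 2.32 ± 0.29 and Mcm2 by 1.96 ± 0.25, so these 5 helicase subunits differed by 1.96 to 2.98. Cdt1, which works with Cdc6 in loading, rose by 2.02 ± 0.30. In all 13 of 25 licensing genes were higher and 1 lower. The exception was Mcm10, a factor that joins the helicase at initiation. Its brightest probe set read 10.79, 11.03 and 10.61 at 0 d and 9.55, 9.67 and 9.49 at 1.5 d (-1.24 ± 0.32, limma adjusted p = 0.00771). The call held in the 16 alternatives, but the difference ranged from -1.34 to -0.56 (limma adjusted p up to 0.0378). The mean over the list was 6.72 to 6.84 in the 0 d livers and 7.39 to 7.85 in the 1.5 d livers, without overlap.

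Of 40 replication fork genes, 28 were higher and 1 lower. Uhrf1, which brings the maintenance DNA methyltransferase to newly copied DNA, read 4.37, 4.72 and 4.78 at 0 d and 6.99, 7.71 and 7.82 at 1.5 d (2.88 ± 0.35; limma adjusted p = 5.87e-06), with every 1.5 d liver above every 0 d liver. Esco2, the acetyltransferase that establishes sister chromatid cohesion, read 2.73, 2.49 and 3.44 at 0 d and 5.38, 5.44 and 5.50 at 1.5 d, a rise of 2.55 ± 0.41. The 1.5 d livers were close to one another in Esco2 and lay above every 0 d liver. The 0 d values of Uhrf1 and Esco2 were also under the floor, and their 1.5 d values met the filter by themselves. Pcna, the sliding clamp of the polymerases, was already abundant at 0 d (9.95, 9.59 and 9.76) and read 10.59, 11.21 and 11.08 at 1.5 d, a rise of 1.19 ± 0.20. Prim1, a subunit of primase, rose by 1.65 ± 0.27, the DNA ligase gene Lig1 by 1.41 ± 0.23 and Ung, which removes uracil from DNA, by 1.64 ± 0.28. Rnaseh2a, a subunit of the ribonuclease that removes RNA from DNA, fell by 0.40 ± 0.11, a call lost in a fit of the 6 arrays alone or on dropping 0 d array 2, or 1.5 d array 2 (adjusted p up to 0.0966). With single arrays left out, 25 to 27 fork genes and 11 to 15 licensing genes were higher.

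Nucleotide supply moved less: 10 of 28 genes were higher, 0 were lower (also 0 in limma at an unadjusted p under 0.05) and the list median was 0.21. Rrm1, the large subunit of ribonucleotide reductase, rose by 1.17 ± 0.19 (limma adjusted p = 0.00015). Rrm2, the small subunit, read 7.74, 6.55 and 7.67 at 0 d and 8.92, 9.42 and 9.08 at 1.5 d (1.81 ± 0.48; limma adjusted p = 0.0081). All 3 of its 1.5 d values lay above the 0 d values, of which replicate 2 was the lowest, and without that array the adjusted p was 0.0617. Tk1, the cytosolic thymidine kinase, did not pass the test against 0 d: it read 8.55, 8.95 and 8.51 at 0 d and 8.24, 7.99 and 8.05 at 1.5 d (-0.58 ± 0.28; limma adjusted p = 0.156), although it passed as lower with array weights and in a fit of the 6 arrays alone. Tk1 was 2.84 higher than at 0.5 d and 1.22 higher than at 1 d (limma adjusted p = 1.44e-07 and 0.0189), when its means were 5.26 and 6.88.

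**Figure D2:**
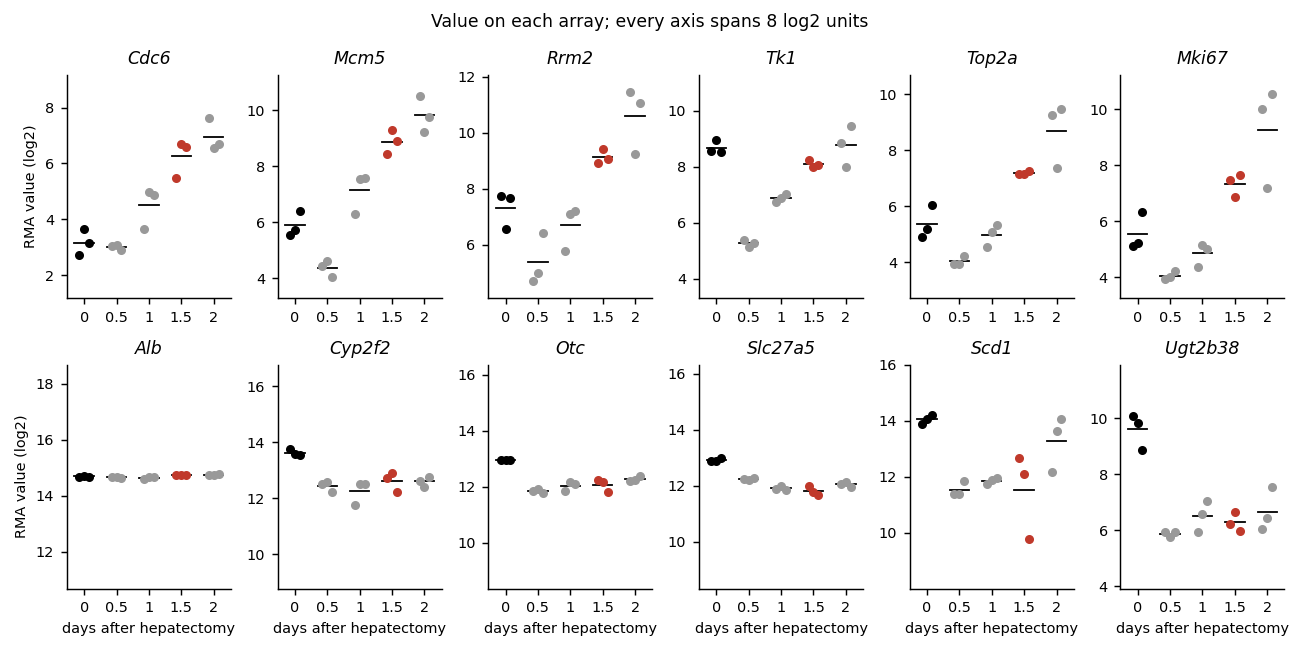
Log2 expression on each array (points) at 0, 0.5, 1, 1.5 and 2 d for 6 cycle genes (top) and 6 hepatocyte genes (bottom), with short lines at the group means, 0 d in black, 1.5 d in red and the other times in grey, every axis spanning 8 log2 units. Cdc6 and Mcm5 were higher on every 1.5 d array than on any 0 d array, Alb stayed between 14.68 and 14.75 in those groups, and Scd1 spread from 9.79 to 12.65 at 1.5 d.

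Among 28 regulators of G1 and S entry, 12 were higher and 1 lower, and without 1.5 d replicate 2 there were 7 higher. Ccne2, a cyclin of the G1 to S transition, rose by 1.78 ± 0.39 and the pocket protein gene Rbl1 (p107) by 1.83 ± 0.31. Its relative Rbl2 (p130), which holds E2F targets silent in resting cells, went the other way and read 8.17, 8.24 and 7.82 at 0 d and 6.94, 6.97 and 6.84 at 1.5 d (-1.16 ± 0.18; limma adjusted p = 0.000105). The Rbl2 groups did not overlap, and the 1.5 d livers differed among themselves by little. Ccnd1, cyclin D1, which couples mitogens to the cycle, read 7.81, 8.25 and 8.02 at 0 d and 8.77, 10.35 and 9.60 at 1.5 d (1.55 ± 0.44; limma adjusted p = 0.0131). The 1.5 d livers spread widely, replicate 2 being the highest, and the call was lost on dropping 0 d array 1, or 1.5 d array 2 (adjusted p up to 0.0985). Ccne1 (0.43), E2f1 (0.31), Myc (-0.31) and the CDK inhibitor gene Cdkn1a (0.97) did not pass the test. Ccne1 did pass with the mean of probe sets, without _x_at and _s_at probe sets, with array weights and in a fit of the 6 arrays alone, E2f1 with the mean of probe sets and without 1.5 d replicate 1, and Cdkn1a with array weights and in a fit of the 6 arrays alone. Of 20 CDK inhibitor and p53 target genes, limma called 0 higher (3 at an unadjusted p under 0.05) and 1 lower, Sesn1 (-0.57 ± 0.17), whose call was lost without _x_at and _s_at probe sets or on dropping 0 d array 2.

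DNA repair and checkpoint genes were higher in 11 of 36 cases and lower in 0 (also 0 in limma at an unadjusted p under 0.05). Chek1, the kinase that guards stalled forks, read 4.92, 5.05 and 5.63 at 0 d and 6.89, 7.93 and 7.58 at 1.5 d (2.27 ± 0.27; limma adjusted p = 4.3e-06). Brca1, of homologous recombination, rose by 1.47 ± 0.25 and Fancb, of the crosslink repair complex, by 1.41 ± 0.15. With a floor of log2 7 in place of 5, 4 repair genes were higher.

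Mitotic genes were higher too, and their counts moved more with single arrays than those of the licensing and fork genes. Of 34 mitotic cyclins, kinases and ubiquitin ligase subunits, 15 were higher and 2 lower; the number higher was 5 without 0 d replicate 1, 7 without 0 d replicate 2 and 5 without 1.5 d replicate 3. Of 65 kinetochore, spindle and cytokinesis genes 32 were higher and 0 lower (also 0 in limma at an unadjusted p under 0.05); the number higher was 15 without 0 d replicate 1, 18 without 0 d replicate 2, 21, 17 and 18 without 1.5 d replicates 1, 2 and 3, and 21 with the floor at log2 7. Ncapg2, a condensin subunit, read 4.61, 4.95 and 5.25 at 0 d and 6.62, 7.37 and 7.03 at 1.5 d (2.07 ± 0.33; limma adjusted p = 9.91e-05). Top2a, the topoisomerase that untangles sister chromatids, read 4.89, 5.17 and 6.05 at 0 d and 7.13, 7.16 and 7.26 at 1.5 d (1.81 ± 0.37; limma adjusted p = 0.000974). In both genes 0 d replicate 3 was the highest 0 d array and still lay below the lowest 1.5 d array. Ect2, needed for cytokinesis, rose by 1.91 ± 0.36. Mki67, the proliferation antigen Ki-67, read 5.13, 5.23 and 6.34 at 0 d and 7.48, 6.87 and 7.64 at 1.5 d (1.77 ± 0.49; limma adjusted p = 0.0117), and its call was lost on dropping 0 d array 1 or 2, or 1.5 d array 3 (adjusted p up to 0.0599). Cdk1, the mitotic kinase, rose by 1.30 ± 0.38, a call lost on dropping 0 d array 1 or 2, or 1.5 d array 3 (adjusted p up to 0.0674). Foxm1 (0.02), the activator of mitotic genes, and Wee1 (-0.68), the kinase that restrains Cdk1, did not pass the test. Pttg1, securin, which holds sister chromatids together until anaphase, was abundant at 0 d and lower at 1.5 d (-0.67 ± 0.10), with 11.14, 11.33 and 11.01 at 0 d and 10.56, 10.46 and 10.45 at 1.5 d.

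The neighbouring times were compared with 1.5 d in the same fit. Against 1 d, 155 of all genes (1.14%) were higher and 132 (0.968%) lower at 1.5 d; of the 276 cycle genes 66 were higher and 1 lower. Against 2 d, 15 genes (0.110%) were higher and 203 (1.49%) lower; of the cycle genes 0 were higher (1 in limma at an unadjusted p under 0.05) and 79 lower. These counts moved with single arrays. The 66 cycle genes higher than at 1 d became 24, 49 and 53 without 1 d replicates 1, 2 and 3, and 60, 26 and 42 without 1.5 d replicates 1, 2 and 3. The 79 cycle genes lower than at 2 d became 12, 155 and 12 without 2 d replicates 1, 2 and 3, and 12, 52 and 31 without 1.5 d replicates 1, 2 and 3. Over all genes, the 155 ranged from 49 (without 1.5 d replicate 2) to 122, the 132 from 43 (without 1.5 d replicate 2) to 98, and the 203 from 26 (without 1.5 d replicate 1) to 430 (without 2 d replicate 2). In limma fits of only the 6 arrays of a pair, 542 genes were called against 1 d and 1 against 2 d. Against 0.5 d, 1669 genes (12.2%) were higher and 1648 (12.1%) lower, and of the cycle genes 161 were higher and 5 lower; without 0.5 d replicate 3 the counts over all genes were 911 and 841. All of these comparisons share the 1.5 d arrays. Of the 121 cycle genes higher at 1.5 d than at 0 d, the highest mean of the 11 times fell at 2 d in 91 genes, at 3 d in 22 and at 1.5 d in 3. The same count was not made over all higher genes.

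**Figure D3:**
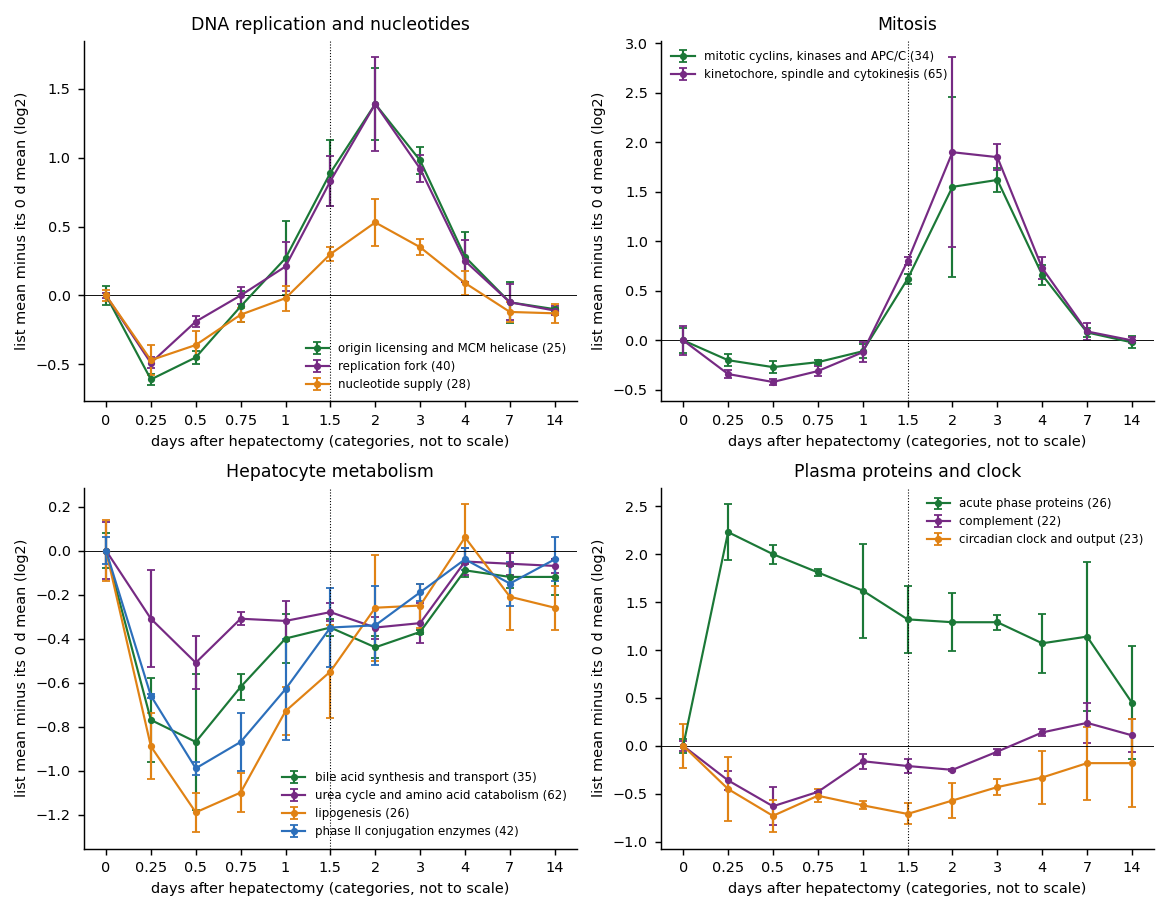
Mean log2 expression of gene lists minus the list's own mean at 0 d (vertical axis) over the 11 times in equally spaced steps (horizontal axis), with the SD over 3 livers as bars and 1.5 d dotted. The licensing list mean went from 7.03 at 1 d to 8.15 at 2 d and the kinetochore list mean from 5.47 to 7.49, with an SD of 0.96 over the 2 d livers, while the bile acid and lipogenesis lists had means of 9.71 and 9.18 at 0.5 d.

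In the licensing and kinetochore lists the 1.5 d livers lay between the means of 1 d and 2 d, but not below every 2 d liver in the kinetochore list. The licensing list mean was 6.72, 7.17 and 7.20 in the 1 d livers, 7.39, 7.85 and 7.73 at 1.5 d and 8.38, 7.87 and 8.20 at 2 d. The kinetochore list mean was 5.35, 5.53 and 5.52 at 1 d, 6.34, 6.40 and 6.42 at 1.5 d and 7.87, 6.39 and 8.19 at 2 d. In the kinetochore list 2 d replicate 2 thus lay among the 1.5 d livers, and in the mitotic list it read 6.75 beside 6.77 to 6.87 at 1.5 d and 8.06 and 8.48 in the other 2 d livers. Cdc6 was 1.74 above 1 d (limma adjusted p = 0.0137) and its difference from 2 d, -0.71 ± 0.39, did not pass (limma adjusted p = 0.487). Top2a was 2.21 above 1 d and 1.51 below 2 d, with limma adjusted p of 0.00198 and 0.0331. Esco2 was 2.40 above 1 d and 2.03 below 2 d, with limma adjusted p of 0.00254 and 0.0119. Of 25 licensing genes 4 were below their 2 d level and of 65 kinetochore genes 35, a difference between the lists that was not tested.

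Hepatocyte functions were lowered in part. Of 485 tested genes in the hepatocyte lists, 124 (25.6%) were lower and 41 (8.45%) higher at 1.5 d, beside 11.7% and 8.33% of all genes; the number higher was 22 without 0 d replicate 1 and 23 without 1.5 d replicate 3. The median difference over the 485 was -0.15, beside 0.45 over the 276 cycle genes. Of the 124 lower genes 31 fell by at least 2-fold. The 124 had a median of -0.69 and the 121 higher cycle genes one of 1.00. Both sets were chosen by passing the test, which fixes the direction of these medians. Several hepatocyte landmarks did not pass the test: Cps1, the first enzyme of the urea cycle, read 13.97, 13.96 and 13.83 at 0 d and 14.02, 14.03 and 13.90 at 1.5 d, and Cyp2e1 (-0.04 ± 0.06), Cyp3a11 (-0.02 ± 0.11) and Cyp1a2 (-0.14 ± 0.34) were also not called. Alb and Cps1 lay near the upper end of the arrays' scale, where a probe set can saturate. Not every hepatocyte list fell. Carrier and binding plasma protein genes were higher in 7 of 30 cases (23.3%) and lower in 5 (16.7%), with a median of 0.02. Apolipoprotein and lipoprotein genes were higher in 5 of 23 (21.7%) and lower in 6 (26.1%), with a median of -0.03. Fatty acid oxidation and ketogenesis genes were higher in 3 of 38 (7.89%) and lower in 6 (15.8%), with a median of -0.02.

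Bile acid genes were lower in 12 of 35 cases, or 34.3%, beside 11.7% of all genes. They were higher in 0 (1 in limma at an unadjusted p under 0.05). Slc27a5, which activates bile acids and fatty acids with coenzyme A, read 12.873, 12.893 and 12.995 at 0 d and 12.003, 11.781 and 11.649 at 1.5 d (-1.11 ± 0.08; limma adjusted p = 6.28e-09). All 1.5 d livers lay below all 0 d livers, and the gap between the groups exceeded the range within each. Baat, which conjugates bile acids, fell by 0.74 ± 0.14, Cyp27a1, of the acidic pathway, by 0.73 ± 0.13, and the export pump gene Abcc3 by 1.00 ± 0.17. Cyp7a1, which sets the rate of bile acid production, read 12.13, 10.88 and 10.98 at 0 d and 10.21, 9.61 and 10.42 at 1.5 d, and its difference of -1.25 ± 0.62 did not pass (limma adjusted p = 0.162), although it did in a fit of the 6 arrays alone (adjusted p = 0.0417). It stood 5.14 above its 0.5 d level. Cyp8b1, which makes cholic acid, read 11.69, 11.65 and 11.23 at 0 d and 10.11, 6.98 and 10.29 at 1.5 d (-2.40 ± 0.66), and 1.5 d replicate 2 set the size of the difference; the call was lost without it (adjusted p = 0.128), as it was in a fit of the 6 arrays alone. The bile acid exporter Abcb11 (-0.25) was not called.

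Urea cycle and amino acid genes formed the list with the largest number of lower members, 27 of 62, with 4 higher. The shares were 43.5% and 6.45%, beside 11.7% lower and 8.33% higher of all genes. Otc, ornithine transcarbamylase, read 12.97, 12.95 and 12.96 at 0 d and 12.25, 12.16 and 11.82 at 1.5 d (-0.88 ± 0.10; limma adjusted p = 1.73e-06), with the 0 d livers nearly identical and all 1.5 d livers below them. Ass1 (-0.44 ± 0.41) and Arg1 (-0.26 ± 0.10; limma adjusted p = 0.0576), of the same cycle, did not pass the test; Arg1 passed in 6 of the 16 alternatives, with a lowest adjusted p of 0.00969. Among catabolic enzymes Prodh (proline) fell by 0.88 ± 0.17, Ivd (leucine) by 0.78 ± 0.12 and Uroc1 (histidine) by 0.56 ± 0.10. Nags, which makes the activator of Cps1, was among the 4 higher members with 0.44 ± 0.12; 2 members were higher without 1.5 d replicate 1 or replicate 2.

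Detoxifying enzymes fell in 9 of 45 P450 and phase I genes and in 15 of 42 phase II genes, with 0 (4 in limma at an unadjusted p under 0.05) and 3 higher. The lower shares were 20.0% and 35.7%, beside 11.7% of all genes. Cyp2f2, a P450 of periportal hepatocytes, read 13.78, 13.59 and 13.54 at 0 d and 12.74, 12.90 and 12.22 at 1.5 d (-1.02 ± 0.17; limma adjusted p = 0.000123). Ces1e, a carboxylesterase, read 10.01, 9.79 and 10.14 at 0 d and 8.64, 8.07 and 7.59 at 1.5 d (-1.88 ± 0.20; limma adjusted p = 1.11e-06). In both genes 1.5 d replicate 3 was the lowest array. Ugt2b38, a glucuronosyltransferase, had the largest fall in these lists, reading 10.09, 9.84 and 8.87 at 0 d and 6.24, 6.63 and 5.97 at 1.5 d (-3.32 ± 0.47; limma adjusted p = 2.41e-05). All its 1.5 d values lay below the 0 d values, of which replicate 3 was the lowest. Gstm6 fell by 1.13 ± 0.20, Sult2a8 by 1.11 ± 0.25 and Ephx2, the soluble epoxide hydrolase, by 0.86 ± 0.12. Families such as these contain near-identical copies, and 3′ probe sets can bind more than 1 member.

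Genes that are higher in male liver under pulsatile growth hormone were lower in 11 of 24 cases, or 45.8%, beside 11.7% of all genes. They were higher in 0 (also 0 in limma at an unadjusted p under 0.05). Slco1a1, an organic anion uptake carrier, fell by 1.11 ± 0.25, Cyp4a12a by 1.33 ± 0.29 and Ugt2b1 by 0.95 ± 0.20. Ugt2b38 belongs to the same list. Hsd3b5, a steroid enzyme of male mouse liver, read 12.10, 12.11 and 11.98 at 0 d and 11.10, 11.22 and 9.63 at 1.5 d and did not pass (-1.41 ± 0.62; limma adjusted p = 0.108), although it did in a fit of the 6 arrays alone (adjusted p = 0.037). Igf1 (0.07) did not pass. The call of Ghr, the growth hormone receptor, changed with the choice of probe set and with array weights: it did not pass with -0.36 ± 0.18 (adjusted p = 0.155), but passed with -0.69 without _x_at and _s_at probe sets (adjusted p = 0.000135), with -0.49 as the mean of its probe sets and with array weights too. The number lower was 7 without any 1 of the 0 d arrays or 1.5 d replicate 1, and 6 without 1.5 d replicate 2 or replicate 3.

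Lipogenic genes were lower in 8 of 26 cases, or 30.8%, beside 11.7% of all genes. They were higher in 0 (also 0 in limma at an unadjusted p under 0.05). The number lower was 5 without 0 d replicate 1 or 1.5 d replicate 2 and 4 without 1.5 d replicate 3. Scd1, the desaturase that makes monounsaturated fatty acids, read 13.88, 14.08 and 14.22 at 0 d and 12.65, 12.09 and 9.79 at 1.5 d (-2.55 ± 0.46; limma adjusted p = 0.000333). Thrsp, a regulator of fatty acid synthesis, read 13.57, 12.24 and 13.30 at 0 d and 10.68, 10.51 and 8.95 at 1.5 d (-2.99 ± 0.59; limma adjusted p = 0.000862). In each gene all 1.5 d arrays were below all 0 d arrays, and 1.5 d replicate 3 was far below the other 1.5 d arrays. Dgat2, which completes triglycerides, fell by 0.87 ± 0.19 and Mlxipl, the carbohydrate-sensing factor ChREBP, by 0.78 ± 0.19. Pklr, liver pyruvate kinase and a ChREBP target, fell by 1.45 ± 0.27. In the cholesterol list the movement was the other way, with a median of 0.60 and 5 of 23 genes higher and 1 lower, but limma called 0 higher without 0 d array 1 or 2, or 1.5 d array 1 or 3 (7 on all arrays at an unadjusted p under 0.05), and 10 were higher in a fit of the 6 arrays alone. Sqle, squalene epoxidase, was 1.39 ± 0.48 higher, a call lost with an intensity trend or on dropping 0 d array 1, 2 or 3, or 1.5 d array 1 or 3 (adjusted p up to 0.167).

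Genes of gluconeogenesis, glycogen and sugar uptake were lower in 8 of 30 cases, or 26.7%, beside 11.7% of all genes. They were higher in 0 (1 in limma at an unadjusted p under 0.05). The number lower was 5 without 0 d replicate 1 and 13 with array weights. Without 1.5 d replicate 3 it was 4, near the 11.7% of all genes on all arrays, a share that falls too when an array is left out. Gys2, liver glycogen synthase, fell by 1.32 ± 0.33, and Slc37a4, the glucose 6-phosphate transporter, by 1.32 ± 0.28. The gluconeogenic enzyme genes Pck1 (-0.11 ± 0.24) and G6pc (-0.73 ± 0.61) did not pass. Of 23 glycolysis and pentose phosphate genes 4 (17.4%) were higher and 5 (21.7%) lower, with a median of 0.01. Ldha, a lactate dehydrogenase subunit, was 0.78 ± 0.12 higher, and Aldoc, an aldolase, 0.78 ± 0.18 lower. The higher count was 2 without 1.5 d replicate 3; the lower count was 3 without 0 d array 1 or 3, or 1.5 d array 1 or 3, and 2 without 1.5 d replicate 2 or in a fit of the 6 arrays alone. Of 41 respiratory chain and citrate cycle genes 17 (41.5%, beside 11.7% of all genes) were lower, with a list median of -0.18. Among the lower genes were Sdhb (-0.46 ± 0.09) of complex II and Ndufs3 (-0.41 ± 0.07) of complex I. Another 4 (9.76%) were higher, near the 8.33% of all genes, so this count is not a result about the list. They were the citrate cycle genes Idh3a, Fh1, Cs and Mdh2, with differences of 0.38 to 0.53. The higher count was 2 without 0 d array 2 or 3, or 1.5 d array 1 or 3. Over the 16 alternatives Idh3a lost its call in 7, Fh1 and Cs in 3 each and Mdh2 in 0.

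Plasma proteins included acute phase, complement and coagulation genes. Of 26 acute phase genes 13 were higher, beside 8.33% of all genes, and the list median was 0.87. Another 3 (11.5%) were lower, near the 11.7% of all genes, so this lower count is not a result about the list. Lcn2, which binds bacterial siderophores, read 5.84, 4.64 and 6.27 at 0 d and 12.33, 12.71 and 13.24 at 1.5 d (7.18 ± 0.88; limma adjusted p = 5.95e-06), the largest difference of all genes named here. Saa2 and Saa1, serum amyloid A, rose by 5.41 ± 0.84 and 3.83 ± 0.50, and Orm2, an orosomucoid, by 4.47 ± 0.78. The acute phase list mean was 9.84 to 9.97 at 0 d, 12.14 at 0.25 d and 10.91, 11.16 and 11.61 in the 1.5 d livers. Complement genes were lower in 7 of 22 cases (31.8%, beside 11.7% of all genes) and higher in 1. C2 fell by 0.87 ± 0.13 and C9, of the membrane attack complex, by 0.61 ± 0.14. Among coagulation genes 4 of 29 (13.8%, beside 8.33% of all genes) were higher, 3 of them the fibrinogen chains (Fga, Fgb and Fgg), and 6 (20.7%) lower, among them F12 (-0.46 ± 0.08) and Proc (-0.42 ± 0.07), which encodes protein C, beside 11.7% of all genes lower. The higher count was 1 without 0 d replicate 1 or 1.5 d replicate 3, and the lower count 3 without 0 d replicate 3 or 1.5 d replicates 1 or 3. These lie below the shares of all genes on all arrays, but those shares fall too when an array is left out. Over all genes 707 to 1007 were then higher and 1145 to 1465 lower. Afp, alpha-fetoprotein of fetal liver, read 5.43, 5.53 and 4.85 at 0 d and 6.35, 6.31 and 6.62 at 1.5 d, a rise of 1.16 ± 0.17 to a level still near the floor. Apoa4 rose by 3.30 ± 0.38 and Apoa5 fell by 0.88 ± 0.20. Hamp2, a hepcidin, read 11.28, 12.11 and 11.99 at 0 d and 7.28, 8.53 and 8.74 at 1.5 d (-3.61 ± 0.40), the largest fall among the plasma proteins named here.

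Genes were also grouped by where in the liver lobule they are highest, near the portal vein (periportal) or the central vein (pericentral). Of 26 periportal genes 8 (30.8%) were lower and 0 higher (1 in limma at an unadjusted p under 0.05), with a median of -0.54. Of 33 pericentral genes 8 (24.2%) were higher and 2 (6.06%) lower, with a median of 0.11. Of all genes 11.7% were lower and 8.33% higher. The periportal list mean was 11.30 to 11.55 at 0 d and 10.87 to 11.05 at 1.5 d, without overlap. The pericentral list mean was 9.58 to 10.17 at 0 d and 10.12 to 10.21 at 1.5 d, with overlap. Pigr, the immunoglobulin A receptor, read 12.87, 12.84 and 12.71 at 0 d and 11.90, 12.01 and 11.65 at 1.5 d (-0.96 ± 0.09; limma adjusted p = 4.12e-07). Among higher pericentral genes Slc1a4, an amino acid carrier, rose by 1.33 ± 0.21 and Lect2 by 1.15 ± 0.23; the number higher was 5 without 0 d array 1 or 2, or 1.5 d array 1 or 3. Whether the lists differed was not tested.

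Among 41 hepatocyte transcription factors and nuclear receptors 8 (19.5%, beside 11.7% of all genes) were lower and 2 (4.88%, beside 8.33%) higher. The lower count was 4 without 0 d replicate 1, 5 without 0 d replicate 2 or any 1 of the 1.5 d arrays, and 6 without 0 d replicate 3. Over all genes the lower count with 1 array left out was 1145 to 1465, beside 1592 on all arrays. Cebpa, a factor that restrains hepatocyte division and drives metabolic genes, read 11.062, 11.376 and 11.004 at 0 d and 9.88, 9.84 and 9.96 at 1.5 d (-1.25 ± 0.23; limma adjusted p = 0.000325). The 1.5 d livers lay close to one another and below every 0 d liver. Esr1, the estrogen receptor, read 7.88, 8.89 and 8.58 at 0 d and 9.69, 9.61 and 9.67 at 1.5 d, a rise of 1.21 ± 0.27. Hnf4a (-0.17 ± 0.08) was not called.

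The lowered hepatocyte genes were mostly not at their lowest at 1.5 d. Of the 124, the lowest mean of the 11 times fell at 0.5 d in 43, at 3 d in 23 and at 1.5 d in 15. The same count was not made over all lower genes, so it is not shown to be particular to hepatocyte genes. Against 0.5 d, 168 of the 485 hepatocyte genes were higher at 1.5 d and 56 lower, beside 12.2% and 12.1% of all genes; the 168 became 111 without 0.5 d replicate 3. Against 1 d 13 of the 485 were higher and 3 lower, beside 1.14% and 0.968% of all genes. The 13 became 3, 5 and 4 without 1 d replicates 1, 2 and 3, and 3 and 2 without 1.5 d replicates 1 and 2. Against 2 d 1 was higher and 1, Scd1 (-1.77, limma adjusted p = 0.0454), lower, beside 0.110% and 1.49% of all genes. Counts this small say little about the hepatocyte genes. The difference of 1.5 d from 0.5 d was -0.42 for Slc27a5 (limma adjusted p = 0.000579), 0.23 for Otc (0.0925) and 0.07 for Ces1e (0.858). The bile acid list mean was 9.71 at 0.5 d, 10.21 to 10.27 at 1.5 d and 10.49 to 10.65 at 0 d, and the phase II list mean was 9.95, 10.38 to 10.70 and 10.90 to 11.02.

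Circadian genes moved in the same comparison, and the hour of sampling is not given in the sources used here. Of 23 clock and output genes 11 (47.8%, beside 11.7% of all genes) were lower and 1 higher, with a median of -0.68. Dbp, a clock output factor, read 11.05, 11.65 and 8.36 at 0 d and 6.25, 8.20 and 8.15 at 1.5 d (-2.82 ± 0.86; limma adjusted p = 0.0209), and Arntl, which encodes BMAL1, read 5.28, 5.39 and 8.12 at 0 d and 8.24, 7.56 and 7.70 at 1.5 d (1.57 ± 0.51; limma adjusted p = 0.0308). In both genes 0 d replicate 3 lay near or among the 1.5 d livers; the call for Dbp was lost in a fit of the 6 arrays alone or on dropping 0 d array 1 or 2, or 1.5 d array 1 and that for Arntl in a fit of the 6 arrays alone or on dropping 0 d array 1 or 2, or 1.5 d array 1 or 3. Cry2, a repressor of the clock, read 7.42, 7.80 and 7.11 at 0 d and 6.27, 6.42 and 6.41 at 1.5 d (-1.07 ± 0.24; limma adjusted p = 0.00208), without overlap. The number lower was 4 without 0 d replicate 1, 3 without 0 d replicate 2, 12 without 0 d replicate 3, and 6 and 7 without 1.5 d replicates 1 and 2. Against 1 d, 0 of 23 clock genes were called, beside 1.14% of all genes higher and 0.968% lower. Against 2 d, 0 were called too, beside 0.110% higher and 1.49% lower. At an unadjusted p under 0.05 in limma there were 0 and 2. With such small shares, these counts of 0 say little about the clock genes. Against 0.5 d, 0 were higher (1 in limma at an unadjusted p under 0.05) and 1 lower. The shares of all genes there were 12.2% and 12.1%. The part of the hour of day in the metabolic genes was not tested.

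**Figure D4:**
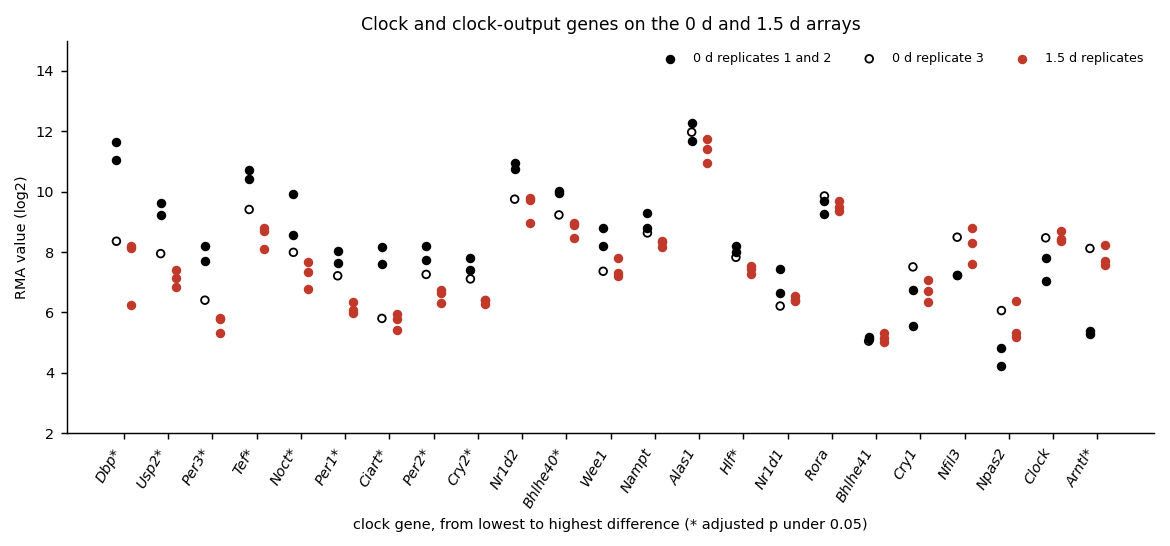
Log2 expression (vertical axis) of 23 clock and output genes (horizontal axis, sorted by their difference) on each 0 d array (black) and each 1.5 d array (red). The 0 d replicate 3 array is an open circle, and an asterisk marks genes past an adjusted p of 0.05. For Dbp that array read 8.36 beside 11.05 and 11.65 on the other 0 d arrays, and for Arntl 8.12 beside 5.28 and 5.39.

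Genes of the tubulin and actin cytoskeleton were higher in 12 of 25 cases (48.0%, beside 8.33% of all genes). They were lower in 0 (1 in limma at an unadjusted p under 0.05). The list mean was 9.44 at 0 d, 9.95 at 0.5 d, 10.14 at 1 d and 10.14 at 1.5 d. Against 1 d, 0 were called (2 higher and 1 lower in limma at an unadjusted p under 0.05). Among tubulins Tubb6 rose by 1.89 ± 0.43 and Tubb5 by 1.25 ± 0.24, and the actin gene Actg1 rose by 1.38 ± 0.25. Krt18, a keratin of hepatocytes, rose by 1.35 ± 0.20. Tubb2a read 8.15, 8.76 and 11.12 at 0 d and 11.92, 11.98 and 11.70 at 1.5 d, with 0 d replicate 3 well above the other 0 d livers, and its call was lost on dropping 0 d array 1 or 2.

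The counts of called markers of other liver cells were 0 to 3 per list in each direction and are given beside the shares of all genes, 8.33% higher and 11.7% lower; those near these shares are not a result about the markers. Of 15 Kupffer cell markers 1 (6.67%) was higher and 2 (13.3%) lower: the scavenger receptor gene Marco read 4.76, 5.39 and 5.55 at 0 d and 7.93, 7.28 and 7.93 at 1.5 d (2.48 ± 0.63), whereas Clec4f (-0.69 ± 0.23) and Csf1r (-0.75 ± 0.24) were lower. Of 18 stellate cell and fibroblast markers 3 (16.7%) were higher, Timp1 (1.14), Pdgfra (0.87) and the hepatocyte growth factor gene Hgf (0.79), and 1, Ecm1 (-0.60), lower. The stellate list mean was 7.38 to 8.15 at 0 d and 7.71 to 8.08 at 1.5 d, and the Kupffer list mean 7.70 to 8.25 and 7.82 to 8.08. Endothelial markers were lower in 2 of 17 (11.8%), Kdr (-0.53) and Oit3 (-0.44), with a list mean of 7.42 to 7.85 at 0 d and 7.36 to 7.51 at 1.5 d. Of 10 neutrophil and monocyte markers and 10 lymphocyte markers 0 were called in limma, with list means of 5.09 to 5.28 and 5.50 to 5.56 at 0 d and 5.44 to 5.60 and 5.40 to 5.53 at 1.5 d; at an unadjusted p under 0.05 there were 3 and 0. The call for Clec4f was lost on dropping 0 d array 1 or 3, or 1.5 d array 1, 2 or 3, and for Kdr on dropping 0 d array 3, or 1.5 d array 3. Csf1r did not pass with the mean of probe sets or on dropping 0 d array 1 or 3, or 1.5 d array 2 or 3. Timp1 did not pass with array weights or in a fit of the 6 arrays alone or on dropping 0 d array 1 or 2, or 1.5 d array 3. Oit3 did not pass with no filter or after quantile normalization or on dropping 0 d array 1 or 3, or 1.5 d array 1, 2 or 3. The part of these cells in the cycle and hepatocyte results was not tested.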

How the data were processed

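The values are the authors' deposited log2 intensities after RMA, per the submitters' processing notes and the file headers; the RMA version is not given in the sources used here. Per the labels, total RNA was extracted with Trizol and biotin-labelled with a 3′ amplification kit. RMA sets all arrays to 1 distribution, so a change in total RNA per cell is not visible. Of 45101 probe sets, 64 were controls, 34945 named 1 gene, 932 several and 9160 none; 34741 were matched by Entrez identifier. Each gene kept its probe set with the highest mean over the 33 arrays, and 4551 genes not reaching log2 5 on 3 arrays were left out. Groups were taken from the titles. The test was limma 3.58.1 in R 4.3.3, with group means of all 11 times (22 residual and 3.69 prior degrees of freedom), contrasts of 1.5 d with 0, 1, 2 and 0.5 d, and Benjamini-Hochberg adjustment over 13642 genes; it was tested on simulated data. SE is that of the fit, and the number of arrays limits the precision. No 2 arrays were identical. Replicate numbers were not used to pair arrays.

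Genes were named by a rule: the 15 highest and 15 lowest differences with groups that did not overlap, up to 6 called members per list in each direction and members called against their list, 55 landmark genes (50 tested), all clock, transcription factor and marker genes, and the 8 highest and 8 lowest per other time. This gave 444 genes. The comparison and the 43 gene lists (1252 genes, 1100 tested) were chosen with earlier results of these data known. Alternatives were other filters, probe set rules, scalings, priors, array weights, a replicate block, fits of the 6 arrays alone, and each array left out.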

Additional observations from a re-analysis of the deposited data

Results flagged for a closer look

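Probe sets that name no gene, or several, stand outside the comparison by gene. Of 4290 such probe sets tested in the same limma fit, 508 passed the adjusted p of 0.05 at 1.5 d against 0 d, 237 higher and 271 lower.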

How the results depend on the processing

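At 1.5 d against 0 d the 2729 calls became 2446 to 3768 under the alternatives on all arrays and 2466 in a fit of the 6 arrays alone, the higher end with array weights, and 1889 to 2472 with 1 array left out. The list members called (402) were 287 to 367 with 1 array left out, the higher cycle genes (121) 87 to 110, the lower hepatocyte genes (124) 92 to 109 and the lower clock genes (11) 3 to 12. Against 1 d the 287 calls were 1864 with array weights, 542 in a fit of the 6 arrays alone and 92 to 214 with 1 array left out; the 66 higher cycle genes were 153, 100 and 24 to 60. Against 2 d the 218 calls were 987, 1 and 26 to 452, and the 79 lower cycle genes were 185, 0 and 12 to 155. Against 0.5 d the 3317 calls were 1449 in a fit of the 6 arrays alone and 1752 to 3545 with 1 array left out. The cause of these shifts was not tested. The higher share of the calls at 1.5 d against 0 d was 41.7%, and 49.4% after quantile normalization and 37.6% after a shift to a common median. Of 275 called genes among the 444 named, 154 kept their call under every alternative run and 121 lost it under at least 1, of which 56 did so only when an array was left out; of the 169 not called, 40 gained a call under at least 1. Anapc1 reversed with the mean of its probe sets (0.02) and Epcam without _x_at and _s_at probe sets (-0.74); the cause was not tested. Arrays of the same replicate number did not deviate together (correlations of -0.093, 0.085 and -0.047), and with a replicate block the calls were 2735, 281, 197 and 3287 against 0, 1, 2 and 0.5 d. Signal near the floor limits low genes such as Cdc6, Esco2 and Afp.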

Other observations

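At 1.5 d against 0 d, where 8.33% of all genes were higher, 10 of 36 proteasome and heat shock chaperone genes (27.8%) were higher and 0 lower (1 in limma at an unadjusted p under 0.05), with a median of 0.23; the number higher was 18 with a floor of log2 7, 20 after quantile normalization and 18 with array weights. Psmd14, a proteasome lid subunit, read 10.35, 10.18 and 10.50 at 0 d and 10.75, 10.83 and 10.82 at 1.5 d (0.46 ± 0.09; limma adjusted p = 0.000425), so all 1.5 d livers lay above all 0 d livers. Of 47 ribosome biogenesis genes 12 (25.5%) were higher and 0 lower (2 in limma at an unadjusted p under 0.05), but 3 were higher without 0 d replicate 2. Those 3 lie below the 8.33% of all genes on all arrays, a share that falls too when an array is left out. Of 30 unfolded protein response genes 4 (13.3%) were higher and 2 lower; the number higher was 7 with a floor of log2 7 or after quantile normalization, 14 with array weights and 8 in a fit of the 6 arrays alone. Selenos rose by 0.56 ± 0.09 and Crebrf, which restrains CREB3 factors, fell by 1.58 ± 0.29.

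H2-Aa, a chain of class II major histocompatibility molecules, read 9.41, 9.21 and 10.05 at 0 d and 7.26, 7.05 and 6.45 at 1.5 d (-2.63 ± 0.34; limma adjusted p = 1.17e-05), and H2-Ab1, its partner chain, fell by 2.05 ± 0.33. Alas2, the erythroid enzyme of heme synthesis, read 9.98, 10.13 and 9.81 at 0 d and 8.93, 8.77 and 8.61 at 1.5 d. Its difference was -1.20 ± 0.18 (limma adjusted p = 5.33e-05), and the erythroid factor gene Klf1 fell by 1.17 ± 0.23. Of 5 erythroid markers 2 were lower, beside 11.7% of all genes. Limma called 0 of them higher (1 at an unadjusted p under 0.05). Their median difference was -0.02 and the highest 0.85, so the fall was not common to the list. The list mean was 7.25 to 7.33 at 0 d and 6.93 to 7.18 at 1.5 d. The part of blood left in the tissue was not tested. Among genes outside the lists, Upp2, uridine phosphorylase, fell by 3.17 ± 0.41, Dynll1, a dynein light chain, rose by 2.59 ± 0.28 and Prtn3, a protease of myeloid granules, rose by 3.10 ± 0.66.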
